A study of Mus musculus with 24 samples.

Results

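The genes described here are Olig1, Olig2, Sox10, Pdgfra, Cspg4, Lhfpl3 and Nkx2-2, which are widely used to mark the oligodendrocyte lineage. They were chosen by name, with earlier results of these data known. They are 7 of the 22529 genes of the deposited table, and each was found once. RNA with poly(A) tails was sequenced from ventricular zone tissue of the embryonic cortex of C57BL/6 mice, in 24 libraries that form 8 groups of 3. Embryos were wild type (WT) or Prdm16 conditional knockout (cKO), collected at embryonic day E11.5 or E13.5 or, later, at E15.5 or E17.5, and each group has libraries lettered A, B and C. The Cre driver, the floxed exons, the sex of the embryos and whether a library holds 1 embryo or several are not given in the labels used here, so p-values measure the spread between these libraries, which may be technical. Prdm16 encodes a zinc finger transcriptional regulator of cortical radial glia, and the comparison asks how its loss alters expression in the ventricular zone on each day.

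Oligodendrocytes make the myelin of the central nervous system and arise from dividing precursors. In the mouse forebrain the first precursors form in the ventral ventricular zone under Sonic hedgehog (SHH) signalling and migrate into the cortex, and radial glia of the cortex itself give rise to precursors near the end of embryonic life. Olig2 and Olig1 are neighbouring genes for basic helix-loop-helix factors, Sox10 is their partner in lineage commitment, Nkx2-2 is a homeodomain factor that promotes differentiation, and Pdgfra and Cspg4 encode surface proteins by which precursors are recognised. None of these genes is exclusive to the lineage. Olig2 is also made by ventral forebrain progenitors, Sox10 by neural crest and Schwann cells, Pdgfra by fibroblasts of the meninges, and Cspg4, which encodes the proteoglycan NG2, by pericytes.

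Olig2 (ENSMUSG00000039830, chr16:91225457-91228677, plus strand) and Olig1 (ENSMUSG00000046160, chr16:91269772-91271933, plus strand) lay 41095 bases apart on GRCm38 in the GENCODE M21 annotation. Sox10 (ENSMUSG00000033006) was at chr15:79154908-79165240 on the minus strand and Nkx2-2 (ENSMUSG00000027434) at chr2:147177546-147194243 on the minus strand. Pdgfra (ENSMUSG00000029231) was at chr5:75152292-75198215, Lhfpl3 (ENSMUSG00000106379) at chr5:22746059-23275597 and Cspg4 (ENSMUSG00000032911) at chr9:56865033-56899870, each on the plus strand. Antisense transcripts shared 157 exonic bases with Olig1, 567 with Lhfpl3, 278 with Nkx2-2 and 456 with Pdgfra. How strand was handled in counting is not stated, so reads of these genes and their antisense partners may not have been told apart.

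The promoters of the genes that differed between the genotypes show what lies at their start sites. They span 250 bases before to 50 bases after each start in RefSeq on GRCm38.p6, whose promoter table matched 5 of the 7 genes. Capitals mark E-boxes (CANNTG, the kind of site that basic helix-loop-helix factors bind) and SOX cores (ACAAT or ATTGT), searched on both strands. The 4 shown are Olig2 and Lhfpl3, lower in cKO at E11.5, Cspg4, lower in cKO at E13.5, and Nkx2-2, higher in the libraries labelled cKO at E17.5.
Olig2, chr16:91225300-91225599, plus strand: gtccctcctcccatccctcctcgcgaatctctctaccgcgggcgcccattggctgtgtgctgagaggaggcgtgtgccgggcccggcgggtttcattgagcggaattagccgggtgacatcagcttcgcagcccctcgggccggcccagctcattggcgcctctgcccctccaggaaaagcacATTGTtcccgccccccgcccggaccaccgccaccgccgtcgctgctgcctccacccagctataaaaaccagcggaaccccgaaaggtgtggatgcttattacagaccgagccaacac
Lhfpl3, chr5:22745804-22746103, plus strand: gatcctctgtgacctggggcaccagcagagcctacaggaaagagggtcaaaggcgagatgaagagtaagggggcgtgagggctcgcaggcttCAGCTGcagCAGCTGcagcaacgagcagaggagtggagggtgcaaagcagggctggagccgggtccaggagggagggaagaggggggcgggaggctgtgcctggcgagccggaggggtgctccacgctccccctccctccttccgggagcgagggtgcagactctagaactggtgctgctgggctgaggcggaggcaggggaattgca
Cspg4, chr9:56864854-56865153, plus strand: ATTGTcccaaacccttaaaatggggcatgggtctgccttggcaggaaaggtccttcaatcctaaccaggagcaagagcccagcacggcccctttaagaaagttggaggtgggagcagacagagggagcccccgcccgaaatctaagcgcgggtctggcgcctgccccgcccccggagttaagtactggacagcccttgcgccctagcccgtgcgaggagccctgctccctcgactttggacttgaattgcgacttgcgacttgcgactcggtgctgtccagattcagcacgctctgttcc
Nkx2-2, chr2:147186353-147186652, minus strand: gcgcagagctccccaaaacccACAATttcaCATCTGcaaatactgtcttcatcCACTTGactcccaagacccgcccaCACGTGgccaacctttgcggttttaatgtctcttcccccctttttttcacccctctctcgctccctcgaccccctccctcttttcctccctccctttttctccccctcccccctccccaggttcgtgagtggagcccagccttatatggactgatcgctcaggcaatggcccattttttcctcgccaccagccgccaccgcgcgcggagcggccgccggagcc

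The Olig2 and Cspg4 windows each held 1 SOX core and 0 E-boxes, the Lhfpl3 window 2 E-boxes and 0 SOX cores, and the Nkx2-2 window 3 E-boxes and 1 SOX core. The Pdgfra window, at chr5:75152001-75152300 and not printed, held 2 E-boxes and 0 SOX cores. Among 32817 promoters of the same length, 72.3% held an E-box and 31% a SOX core.

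Values are normalized reads, the reads of a gene divided by the size factor of the library. Libraries held 25639836 to 38879931 reads in genes. Markers of cortical progenitors were present in all 24 libraries, with Pax6 between 1919 and 10317 normalized reads and Emx1 between 886 and 3936. Prdm16, the targeted gene, had means of 2123 ± 88.3 (SD, n = 3) in WT and 1046 ± 304 in cKO at E11.5, and of 5490.0 ± 811 and 1847 ± 79.8 at E13.5. At E15.5 the means were 2579 ± 66.5 and 2276 ± 224, a difference that did not pass the test (limma, adjusted p = 0.88). At E17.5 it was higher in the libraries labelled cKO (3481 ± 452) than in those labelled WT (2041 ± 36.2). This is the reverse of E11.5 and E13.5, so "labelled" is used for that day. With the floxed exons not given, the label alone does not say how reads over the whole gene should change. Whether the labels of that day are exchanged was not tested. If they were, every difference between the genotypes at E17.5 would change sign, and each step from E15.5 to E17.5 would join different genotypes. In 5 groups (WT and cKO at E11.5 and E15.5, cKO at E13.5) the values of library C lay near a weighted sum of those of A and B, with a median squared residual of 0.57 to 0.901 against 0.455 for counting noise and 3.09 to 3.97 in the other 3 groups. If C was drawn from A and B there, it is not an independent replicate. The spread within these groups would then be too small and the p-values too low. Whether it was is not known, and n = 3 counts libraries. The WT libraries B and C of E15.5 held high levels of skin and connective tissue genes. Calls of the lineage genes that are lost without these libraries are given with the value.

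All 7 genes were tested, each with at least 3 libraries at 10 or more normalized reads. Olig2 and Lhfpl3 reached this level in 23 libraries, Pdgfra and Cspg4 in 24, Olig1 and Sox10 in 15, and Nkx2-2 in 4, all at E17.5 and 3 of them labelled cKO. Nkx2-2 thus entered the test through the groups where it was highest. Counts of genes called at E17.5, and from E15.5 to E17.5 within a genotype, are also given without it where first stated. Other counts and the medians keep it in. Differences were tested with limma on log2(value + 1) across all 17518 genes tested, and calls are at a Benjamini-Hochberg adjusted p under 0.05. Folds are on that log2 scale. The added 1 shrinks the change of a gene with few reads. A single library near 0 can instead make the fold larger than that of the group means.

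Olig2 was lower in cKO on E11.5 and on E13.5 and higher in the libraries labelled cKO at E17.5. At E11.5 WT had 279, 294 and 274 normalized reads, and cKO had 17.9, 20.9 and 20.3. The groups were far apart and the libraries within each were close. Olig2 was 13.7-fold lower in cKO (log2 fold change -3.78 ± 0.25 SE, limma adjusted p = 7.9e-09, n = 3 per group). On E13.5 WT had 28.8, 59.4 and 53.5, and cKO had 9.43, 15.6 and 15.6. Every WT library was above every cKO library, and Olig2 was 3.25-fold lower in cKO (log2 fold change -1.70 ± 0.25 SE, limma adjusted p = 0.00035, and 0.058 with only the 2 groups compared in the fit). By E15.5 WT had 56.7, 36.7 and 44.7, and cKO had 68.7, 63.4 and 61.3. All cKO libraries were now above all WT libraries, by a difference that did not pass the test (log2 fold change 0.50 ± 0.25 SE, limma adjusted p = 0.53). At E17.5 values were 213, 344 and 392 for the WT label and 641, 614 and 626 for the cKO label. Olig2 was 2.05-fold higher in the libraries labelled cKO, which did not overlap those labelled WT (log2 fold change 1.03 ± 0.25 SE, limma adjusted p = 0.0026).

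Olig1, the neighbouring factor, was scarce before E15.5. At E11.5 WT had 19.1, 20.4 and 25.3 normalized reads and cKO had 3.84, 0 and 1.02, where the 3 libraries together held 4 reads of the gene. It was lower in cKO (log2 fold change -3.39 ± 0.50 SE, limma adjusted p = 0.00027), 10.5-fold on the tested scale, a call lost with only the 2 groups compared in the fit (adjusted p = 0.076). At E13.5 it was near the limit of detection in both genotypes, with 5 reads over the WT libraries and 7 over the cKO libraries. At E15.5 WT had 97.7, 53.1 and 78.3 and cKO had 127, 89.3 and 119, and the groups overlapped (log2 fold change 0.57 ± 0.50 SE, limma adjusted p = 0.93). At E17.5 values were 374, 527 and 549 for the WT label and 795, 768 and 1010.1 for the cKO label. These did not overlap, and the difference did not pass limma's test (log2 fold change 0.84 ± 0.50 SE, adjusted p = 0.20), while the count test of edgeR on recovered reads called it (adjusted p = 0.013).

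The ratio of Olig1 to Olig2, each in normalized reads per kilobase of exon, changed between E13.5 and E15.5. At E11.5 it was 0.0898 ± 0.016 (SD, n = 3) in WT and 0.103 ± 0.131 in cKO. At E13.5 it was 0.0452 ± 0.0296 in WT and 0.177 ± 0.16 in cKO. Olig2 exceeded Olig1 in every library of both days. The ratios in cKO at E11.5, WT at E13.5 and cKO at E13.5 rest on 4, 5 and 7 reads of Olig1. From E15.5 Olig1 exceeded Olig2 in every library of both genotypes. The ratio was then 1.92 ± 0.196 in WT and 2.03 ± 0.33 in cKO at E15.5, and 1.83 ± 0.212 and 1.60 ± 0.249 in the libraries labelled WT and cKO at E17.5. Exonic lengths are 2.16 kb for Olig1 and 2.53 kb for Olig2, and the ratios are given without a test.

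Sox10 was low and uneven on the first days. WT had 20.9, 12.1 and 7.79 normalized reads at E11.5 and cKO had 6.40, 0.952 and 7.11, without overlap but by a difference that did not pass the test (log2 fold change -1.47 ± 0.89 SE, limma adjusted p = 0.55). At E13.5 WT library B read 45.3, WT libraries A and C 0 and 1.88, and the cKO libraries 1.05, 0 and 2.08. Library B alone set the WT mean. In limma the difference did not pass (log2 fold change -1.47 ± 0.89 SE, adjusted p = 0.24), but it turned to 0.12 without WT library B and passed without WT library A (-2.64, adjusted p = 0.034). The count tests on recovered reads called it lower in cKO, with an adjusted p of 0.037 by edgeR and 0.0051 by DESeq2.

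WT library B at E13.5 also stood apart in neural crest genes. Foxd3, a neural crest factor, read 27.4 there and 0 in the other 5 libraries of that day, and Erbb3, a neuregulin receptor of Schwann cell precursors, read 78.3 against 3.12 to 7.69 in the others. The summed level of the 7 measured neural crest and Schwann cell genes did not separate this library, at 936 against 859 and 720.3 in WT libraries A and C and 237 to 1957 in cKO. At E15.5 Erbb3 was likewise high in WT libraries B and C, at 289 and 152 against 6.84 in A, beside Sox10 values of 73.3, 60.2 and 22.5. In cKO on that day Sox10 was at 44.1, 36.5 and 45.0, within the WT range (log2 fold change -0.15 ± 0.89 SE, limma adjusted p = 1.0). Without WT libraries B and C the difference was 0.86. The part of these genes in the Sox10 values was not tested. At E17.5, Sox10 was at 95.1, 103 and 104 for the WT label and at 169, 223 and 208 for the cKO label. All 3 of the latter were higher, and the difference did not pass the test with all libraries in the fit (log2 fold change 0.98 ± 0.89 SE, limma adjusted p = 0.42) but passed with only the 2 groups compared (adjusted p = 0.0013).

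Nkx2-2 was at the floor until E15.5. At E11.5 and E13.5 the 12 libraries held 1 read of it in all, in WT library C at E11.5, and 0 in every other, where 3 reads would be 2.73 to 3.84 normalized reads. At E15.5 WT had 2.93, 0.965 and 1.72 and cKO had 3.08, 2.88 and 3.07, from 6 and 9 reads. At E17.5 values were 7.48, 19.7 and 9.11 for the WT label and 22.7, 28.5 and 24.7 for the cKO label, without overlap. Nkx2-2 was 2.16-fold higher in the libraries labelled cKO (log2 fold change 1.11 ± 0.39 SE, limma adjusted p = 0.026). Since the gene passed the filter through libraries of E17.5 alone, this call is not independent of the filter. This call was lost when any of 4 libraries was left out, namely A or C of the WT label (adjusted p = 0.13 and 0.094) or B or C of the cKO label (0.082 and 0.052). It was also lost without the 5 C libraries of the other groups (adjusted p = 0.053), with a pseudocount of 0.5 (0.074) and by DESeq2 (0.19).

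**Figure D1:**
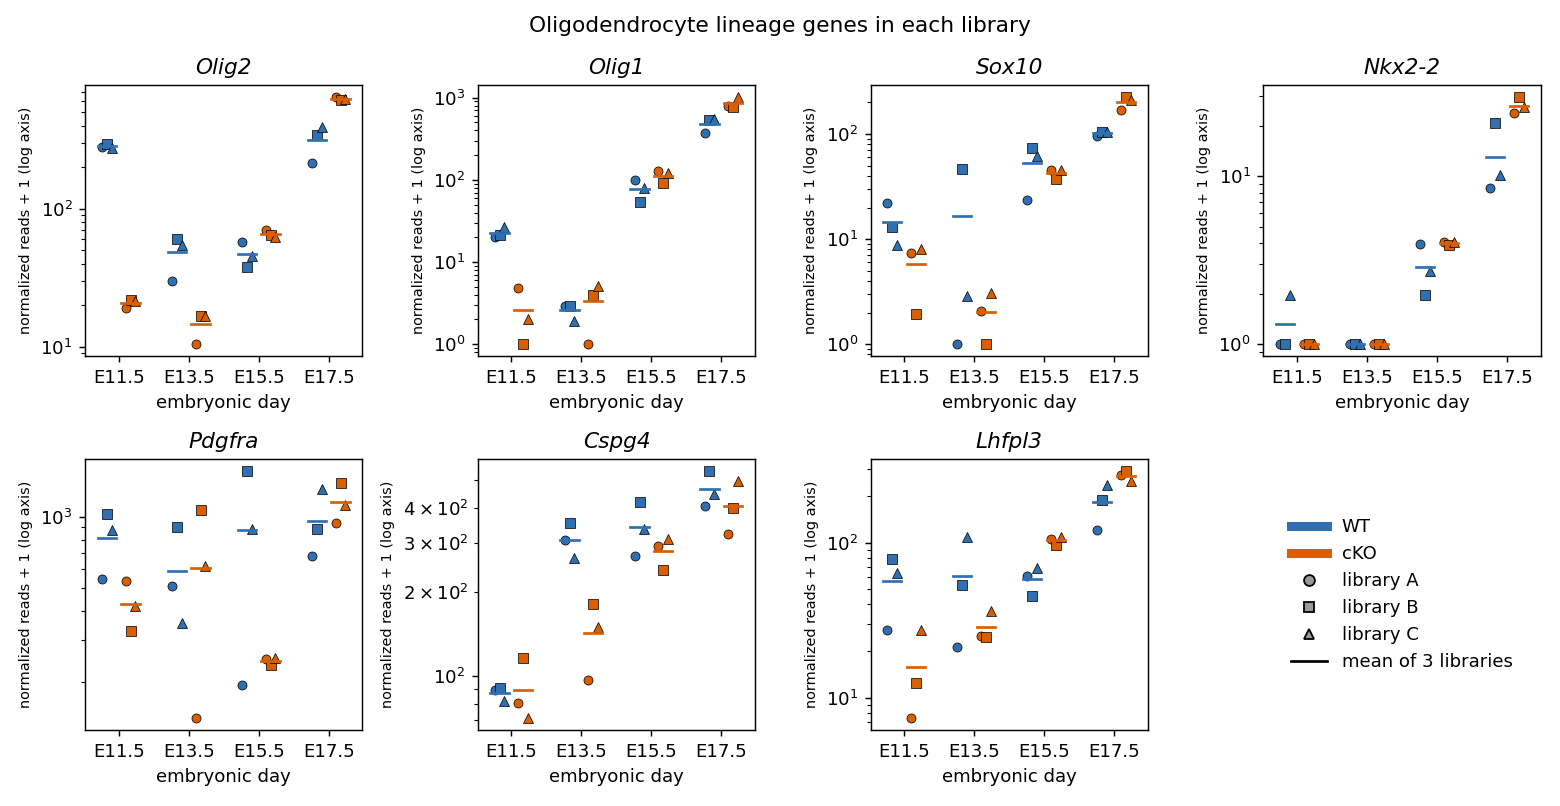
Normalized reads plus 1 on a log axis for each gene, by embryonic day, with WT in blue, cKO in orange, a symbol for each library letter and a line at the mean of 3 libraries. Olig2 falls from 282 to 47.3 between E11.5 and E13.5 in WT and is at most 20.9 in every cKO library on both days, and 6 of the 7 genes have their highest group mean in the libraries labelled cKO at E17.5.

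Lhfpl3, a tetraspan protein gene of the LHFPL family with transcripts enriched in precursors, was lower in cKO at E11.5. WT had 26.4, 77.0 and 62.3 and cKO had 6.40, 11.4 and 26.4. WT library A and cKO library C met at 26.4, and the others were apart. The gene was 3.77-fold lower in cKO (log2 fold change -1.92 ± 0.49 SE, limma adjusted p = 0.034). The call was lost without WT library B (adjusted p = 0.21), WT library C (0.16) or cKO library A (0.20), without the 5 C libraries (0.16), without the WT libraries B and C of E15.5 (0.051), which share the estimate of the spread, with only the 2 groups compared (0.30), and by edgeR (0.065). At E13.5 WT had 20.2, 51.9 and 107 and cKO had 24.1, 23.5 and 35.3, with overlap (log2 fold change -0.81 ± 0.49 SE, limma adjusted p = 0.23). That difference passed once WT library A was left out (-1.43, adjusted p = 0.041). At E15.5 the cKO libraries, at 105, 96.0 and 108, were above the WT libraries, at 59.6, 44.4 and 68.0, and the difference did not pass (log2 fold change 0.85 ± 0.49 SE, limma adjusted p = 0.65). At E17.5 values were 271, 288 and 247 for the cKO label and 119.7, 188 and 234 for the WT label, again apart and not past the test (log2 fold change 0.62 ± 0.49 SE, limma adjusted p = 0.34).

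Of the 2 surface proteins, Cspg4 was lower in cKO on a single day. At E11.5 WT had 88.3, 90.0 and 80.8 and cKO had 79.4, 115 and 70.1, with a log2 difference of -0.00 ± 0.23 SE. At E13.5 WT had 306, 351 and 263 and cKO had 96.4, 179.9 and 148. The groups did not overlap, and Cspg4 was 2.21-fold lower in cKO (log2 fold change -1.15 ± 0.23 SE, limma adjusted p = 0.0025, and 0.061 with only the 2 groups compared in the fit). At E15.5 the means were 340.1 ± 74.8 (SD, n = 3) in WT and 279 ± 35.4 in cKO, and at E17.5 463 ± 69.2 and 404 ± 88.4 in the libraries labelled WT and cKO. The groups overlapped on both days and neither difference passed the test (limma adjusted p = 0.92 and 0.50). The 8 measured pericyte genes had summed levels of 9544 to 12937 in WT and 7327 to 9904 in cKO at E13.5, and 1 of the 8 tested, Abcc9, an ion channel subunit of mural cells, was lower in cKO (692 ± 118 against 454 ± 111, log2 fold change -0.62 ± 0.17 SE, limma adjusted p = 0.015, and 0.099 without the 5 C libraries). The part of pericytes in the Cspg4 difference was not tested.

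Pdgfra, the receptor for platelet-derived growth factor A, passed the test between the genotypes on none of the 4 days. At E11.5 WT had 547, 1020.2 and 876 and cKO had 535, 329 and 419. All WT libraries were higher, by a log2 difference of -0.91 ± 0.62 SE for cKO (limma adjusted p = 0.62). At E13.5 WT had 508, 901 and 353 and cKO had 140.3, 1068 and 615, a spread within each group that exceeded the difference between the means of 588 and 608 (limma adjusted p = 0.79). At E15.5 WT had 193, 1557 and 885 and cKO had 250.1, 234 and 253. Here WT library A was below every cKO library and WT libraries B and C were far above (log2 fold change -1.39 ± 0.62 SE, unadjusted p = 0.038, limma adjusted p = 0.40). Without WT library A the difference passed (-2.25, adjusted p = 0.015), and without WT libraries B and C it turned to 0.34. At E17.5 the means were 956 ± 317 (SD, n = 3) and 1150.4 ± 224 in the libraries labelled WT and cKO, with overlap (limma adjusted p = 0.74).

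Fibroblast genes moved with Pdgfra on the first 3 days, except within cKO at E15.5. The 9 measured genes of fibroblasts and meninges, all tested, summed to 479, 112263 and 54729.6 normalized reads in WT libraries A, B and C at E15.5, the same order as Pdgfra. In cKO libraries A, B and C of that day the sums were 417, 999.8 and 600.2. Pdgfra did not follow that order there, at 250.1, 234 and 253. Col1a1, a fibrillar collagen gene, read 51.8, 34888 and 16658 in the WT libraries of that day. Epidermal keratinocyte genes were high in the same pair of libraries, with Krt5 at 6658 and 3311 against 1.95 in A. At E13.5 the fibroblast sum was 10099.9, 31488 and 22727 in cKO libraries A, B and C beside Pdgfra values of 140.3, 1068 and 615, and at E11.5 it was 21057, 37055 and 31574 in WT beside 547, 1020.2 and 876. At E17.5 it was 507 to 1154 over the 6 libraries, while Pdgfra ranged from 681 to 1388. None of the 9 genes passed the test at E11.5, E13.5 or E17.5, and 2 of 9, Col1a2 and Col3a1, were lower in cKO at E15.5, a count that was 0 without WT libraries B and C. The part of fibroblasts in the Pdgfra values was not tested, and in tissue RNA fewer cells of a type cannot be told apart from less RNA per cell.

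**Figure D2:**
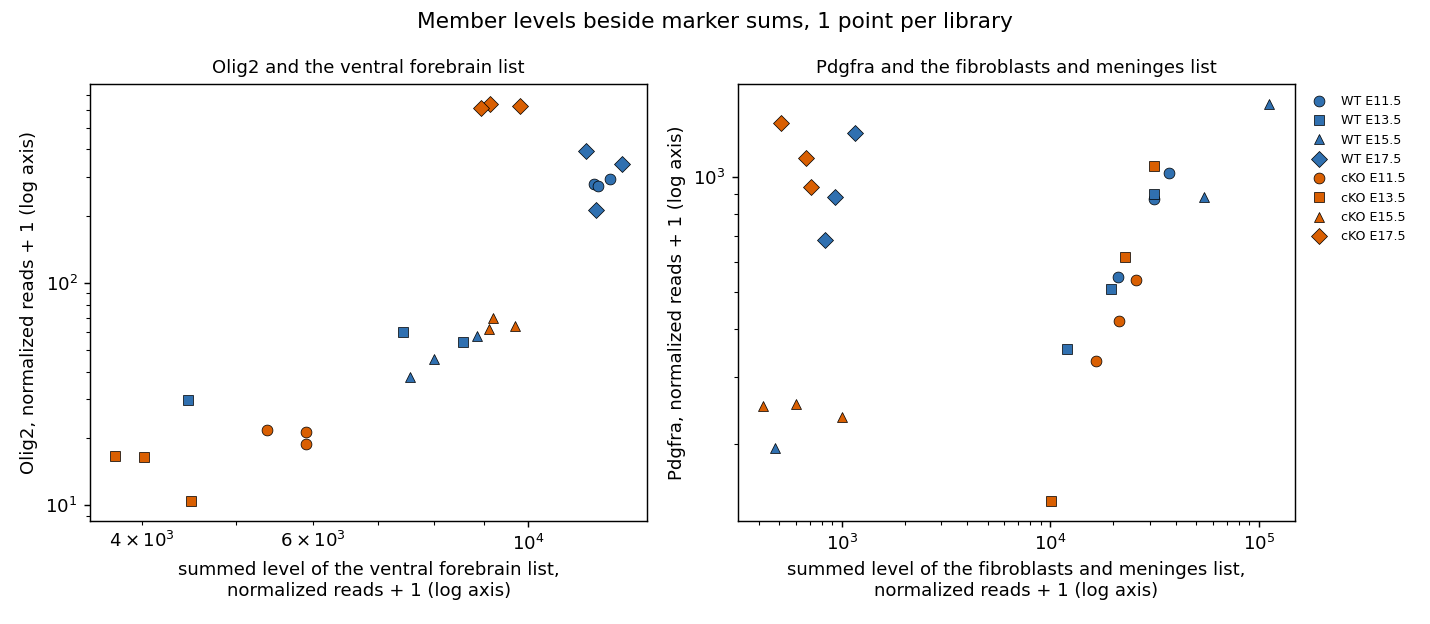
Each point is 1 library, with both axes in normalized reads plus 1 on log scales, colour for the genotype and symbol for the day. Left, Olig2 against the sum of 16 ventral forebrain genes, where the cKO libraries of E11.5 and of E13.5 and WT library A at E13.5 lie lowest; right, Pdgfra against the sum of 9 fibroblast genes, where the libraries at E11.5 and E13.5 rise together and those at E17.5 read 681 or more at sums of at most 1154.

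Counted over the lineage genes, 3 of 7 were lower in cKO at E11.5 (Olig2, Olig1 and Lhfpl3) and 0 higher. Over all genes tested, 3.13% were called on that day in either direction, and 2.52% of all genes were lower in cKO. At E13.5 2 of 7 were lower (Olig2 and Cspg4) and 0 higher, beside 22.3% of all genes called and 12.5% lower. At E15.5 limma called 0 of 7, with 1 at an unadjusted p under 0.05 (Pdgfra), and edgeR and DESeq2 also called 0; over all genes 2.52% were called. At E17.5 2 of 7 were higher in the libraries labelled cKO (Olig2 and Nkx2-2, or Olig2 alone of the 6 genes other than Nkx2-2) and 0 lower, beside 40.4% of all genes called and 18.6% higher. With 7 genes, the E13.5 and E17.5 counts lie near those shares, and the E11.5 count rests on Lhfpl3 for 1 of its 3. Since the genes were chosen with earlier results of these data known, the shares give scale and are not a test of the set. On the successive days the median log2 difference of the 7 genes was -1.47, -0.81, 0.50 and 0.84, beside medians of -0.00, -0.02, 0.04 and -0.04 over all genes tested.

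**Figure D3:**
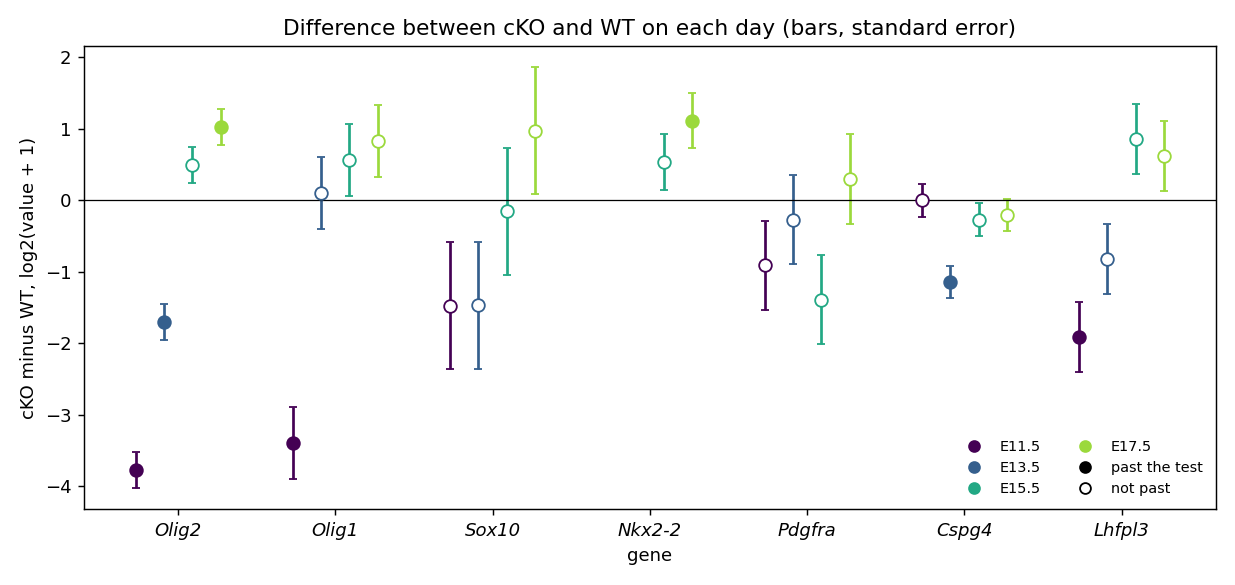
Difference between cKO and WT on the log2(value + 1) scale for each gene and day, with bars of 1 SE from limma; filled points passed the threshold of 0.05 after adjustment over all genes tested. Olig2 goes from -3.78 at E11.5 to 1.03 at E17.5 by the labels of that day, and Nkx2-2 is drawn from E15.5 on because it was at the floor before.

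The difference between the genotypes changed with the day for 4 of the 7 genes, beside 32.2% of all genes tested (joint F test in limma over the 4 days, with E17.5 as labelled). The F value was 75.9 for Olig2 (adjusted p = 3.1e-08), 15.4 for Olig1 (0.0003), 7.02 for Lhfpl3 (0.011) and 4.99 for Cspg4 (0.034). For Olig2 each step from E11.5 to E15.5 passed on its own. The difference rose by 2.08 ± 0.36 SE on the log2 scale from E11.5 to E13.5 (limma adjusted p = 0.013, with 0.285% of all genes called) and by 2.20 ± 0.36 SE from E13.5 to E15.5 (adjusted p = 0.0028, with 6.21% called). For Olig1 the step from E11.5 to E13.5 passed (3.50 ± 0.71 SE, adjusted p = 0.037). Both Olig2 steps were lost without the 5 C libraries (adjusted p = 0.47 and 0.16), the first also with only the groups compared (0.19) and the second also without the WT libraries B and C of E15.5 (0.11). The Olig1 step was lost when any of 12 single libraries was left out, 5 of them outside the groups compared (adjusted p from 0.054 to 0.12). It was also lost without the 5 C libraries (0.62), without the WT pair B and C of E15.5 (0.064), with only the groups compared (0.37), with a pseudocount of 0.5 (0.078), without a trend (0.052) and by edgeR (0.097). From E15.5 to E17.5 as labelled none of the 7 passed, beside 29.1% of all genes, and Pdgfra passed without WT library A at E15.5 (2.55, adjusted p = 0.013). This count rests on the direction of the E17.5 labels. The Cspg4 steps passed without cKO library B at E13.5 (-1.34 and 1.07, both 0.034) and the second Lhfpl3 step without WT library A at E13.5 (2.28, 0.040). The Cspg4 F test did not pass without WT library C at E11.5 (adjusted p = 0.057), WT library A or B at E13.5 (0.069 and 0.096), cKO library A or C at E13.5 (0.11 and 0.052), or the 5 C libraries (0.14).

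Ventral forebrain genes moved with Olig2 at E11.5 and E13.5. The shares of all genes called on each day, given above, also stand beside the list counts that follow. The lists too were chosen with earlier results of these data known, so those counts are descriptive. Of 15 tested, 11 were lower in cKO at E11.5 and 0 higher, with a median log2 difference of -5.28, and 7 were lower without the 5 C libraries. Dlx2, a homeobox factor of interneuron progenitors, was at 1504, 1777 and 1671 in WT against 74.3, 24.7 and 38.6 in cKO. Gad2, an enzyme of GABA synthesis, had means of 698 ± 48.6 (SD, n = 3) and 7.59 ± 4.99 (log2 fold change -6.53 ± 0.73 SE, limma adjusted p = 1.4e-05). The sum over the 16 measured genes was 11686 to 12131 in WT and 5380.1 to 5900.2 in cKO, where Gsx1 and Nkx2-1 were at 0 in all 3 libraries and had 7 reads and 1 read over the WT libraries.

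At E13.5 8 of the 15 were lower in cKO and 0 higher, beside 22.3% of all genes called and 12.5% lower. Without the 5 C libraries 6 were lower. Dlx2 read 72.1, 687 and 591 in WT libraries A, B and C and 16.6 to 25.4 in cKO. WT library A, the lowest of the WT libraries for Olig2 at 28.8, was also the lowest for Dlx2, and its ventral sum of 4456 was within the cKO range of 3756 to 4488. At E15.5 0 of 15 passed in limma, with 1 at an unadjusted p under 0.05, and sums were 7556 to 8859.6 in WT and 9117 to 9699.9 in cKO. At E17.5 3 were higher in the libraries labelled cKO (Gsx1, Nkx2-1 and Sp8) and 0 lower, beside 18.6% of all genes higher. The sums ran the other way, 11464 to 12489 in the libraries labelled WT and 8943 to 9806 in those labelled cKO. The part of ventral tissue in the Olig2 and Olig1 differences was not tested.

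SHH signalling genes differed in both directions over the days. At E11.5 1 of 11 tested was lower in cKO, Ptch1, a receptor and target of the pathway (988 ± 28.7 against 369.9 ± 29.6, log2 fold change -1.42 ± 0.19 SE, limma adjusted p = 8e-05), and 0 were higher. At E13.5 3 were lower, Ptch1, the effector Gli2 and the co-receptor Cdon, and 0 without the 5 C libraries. At E15.5 1 was lower, the hedgehog-binding protein gene Hhip, a call lost without WT libraries B and C (limma adjusted p = 1.0). At E17.5 7 of 11 were higher in the libraries labelled cKO and 0 lower, among them Gas1, a co-receptor (log2 fold change 1.61 ± 0.19 SE, limma adjusted p = 8.9e-07), Gli1, a target of the pathway (1.60 ± 0.47 SE, 0.0093), and Smo, its signal transducer (1.37 ± 0.12 SE, 2.9e-08). The median over the 11 was 0.97 on that day, when 40.4% of all genes were called and 18.6% were higher. Shh itself, the ligand, was near the floor in both genotypes, with 3 reads over the WT libraries at E11.5 and 1 at E13.5 and 0 in cKO on both days, and was too low for the test in any comparison.

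Of 19 other genes of progenitors and precursors tested, 3 were lower in cKO at E11.5 and 0 higher, and calls went in both directions later. Among them Sox8, a relative of Sox10, fell by 1.01 ± 0.13 SE on the log2 scale (limma adjusted p = 4.9e-05), and Ptprz1, a receptor phosphatase, passed as well (limma adjusted p = 0.011, and 0.43 without the 5 C libraries). At E13.5 7 were lower and 1 higher, against 3 and 0 without the 5 C libraries. The 3 were Sox8, Ptprz1 and Zfp488, a zinc finger co-repressor of Olig2 that read 2.85 ± 0.983 (SD, n = 3) in WT and 0 in all cKO libraries. At E15.5 2 were higher, Sox8 and Pcdh15, and both calls were lost without WT libraries B and C or without the 5 C libraries.

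At E17.5 6 of the 19 were higher in the libraries labelled cKO and 3 lower, beside 40.4% of all genes called and 18.6% higher. Sox8 rose by 2.25 ± 0.13 SE on the log2 scale (514 ± 64.7 against 2437 ± 267 normalized reads, limma adjusted p = 1.3e-10), Sox9, a factor of progenitors and glia, by 1.94 ± 0.13 SE (1.1e-09), and Tcf7l2, a Wnt effector, by 1.79 ± 0.16 SE (2.5e-08). The matrix genes Tnr, for tenascin-R, and Vcan, for versican, fell by 2.34 ± 0.53 SE (limma adjusted p = 0.0013) and 1.61 ± 0.29 SE (0.00017). Sox8, Sox9, Tnr and Vcan are not restricted to the lineage.

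Genes used to mark differentiating oligodendrocytes were also mixed. Some were high from the first days, with Mbp at 972 ± 54.6 in WT at E11.5. Cldn11 was at 233 ± 60.6 in WT at E11.5 and 517 ± 169 at E13.5. Others were low, with Mag at 0.958 ± 0.974 in WT at E11.5. Which cells held these transcripts was not tested. At E11.5 1 of 10 tested was higher in cKO, Bcas1, a gene of newly forming oligodendrocytes (15.6 ± 2.60 against 47.8 ± 9.39, log2 fold change 1.55 ± 0.22 SE, limma adjusted p = 0.0002, and 0.063 without the 5 C libraries). At E13.5 2 were lower, Gpr17, a receptor of committed precursors, and Ugt8a, an enzyme of myelin lipid synthesis, and 0 without the 5 C libraries. The Gpr17 mean in WT was 20.8 ± 27.8, an SD larger than the mean. At E15.5 1 was higher, the claudin gene Cldn11 (3.34 ± 1.66 against 36.3 ± 16.8, log2 fold change 3.08 ± 0.35 SE, limma adjusted p = 1.7e-05). At E17.5, beside 40.4% of all genes called and 18.6% higher, 4 were higher in the libraries labelled cKO (Cnp, Cldn11, Bcas1 and Ugt8a) and 2 lower. Mbp, for myelin basic protein, was among the latter, at 908 ± 47.8 against 354 ± 29.9 (log2 fold change -1.36 ± 0.10 SE, limma adjusted p = 1.7e-09), and Mog was the other (adjusted p = 0.042, and 0.061 without the 5 C libraries). Mobp, a late myelin gene, was at 0 in all 3 libraries of 6 of the 8 groups, and the sum of the 15 genes stayed between 1770.0 and 2763 in every library.

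Within PDGF signalling, 0 of 6 genes passed in limma at E11.5 or at E13.5, with 0 at an unadjusted p under 0.05 on either day. At E15.5 Pdgfrl, a receptor-like gene, was lower in cKO (limma adjusted p = 0.0026, and 0.48 without WT libraries B and C). At E17.5 Pdgfa, the ligand of Pdgfra, was lower in the libraries labelled cKO (359 ± 21.1 against 201 ± 21.1, log2 fold change -0.84 ± 0.27 SE, limma adjusted p = 0.017, and 0.052 without the 5 C libraries). Pdgfd and Pdgfrl were higher, by 0.93 ± 0.26 SE and 0.89 ± 0.30 SE on the log2 scale. In the lists for other cell types at E17.5, Lhx5 and Barhl2 of the diencephalon list were lower in the libraries labelled cKO (2 of 4 tested). Dct, of the neural crest list, was higher at 1318 ± 498 against 134 ± 46.9. In WT at E11.5 Dct was already at 491 ± 148, beside 19.4 ± 12.6 for Pmel of the same list. Which cells held these transcripts was not tested.

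Across the days, the lineage genes followed separate courses in WT. From E11.5 to E13.5 Olig2 fell by 2.62 ± 0.25 SE on the log2 scale (limma adjusted p = 2.6e-07) and Olig1 by 3.15 ± 0.50 SE (5.3e-05), while Cspg4 rose by 1.81 ± 0.23 SE (4.7e-06), from 86.3 to 307 normalized reads. Those 3 of 7 stand beside 55.3% of all genes called, 29.6% higher and 25.7% lower. From E13.5 to E15.5 3 of 7 rose, beside 47% of all genes called and 24.2% higher. Olig1 rose 29.6-fold on the tested scale (limma adjusted p = 1.3e-07) and Sox10 9.29-fold (0.0054). The Sox10 means were 15.7 ± 25.6 and 52.0 ± 26.4, and its log2 difference was 3.22 in limma and 1.73 by edgeR and DESeq2. The Sox10 call was lost without WT library A at E13.5 (limma adjusted p = 0.055) and with only the groups compared (0.085). It was also lost by edgeR (0.056) and DESeq2 (0.066). Without the WT libraries B and C of E15.5 the log2 difference was 2.20. Nkx2-2 went from 0 reads to a mean of 1.87 ± 0.992, at least 1.98-fold higher if the floor of 3 reads is taken over the group (limma adjusted p = 0.0039, and 0.081 with a pseudocount of 5). Olig2 had means of 47.3 and 46.0 normalized reads on those days, a difference that did not pass (limma adjusted p = 0.99).

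From WT at E15.5 to the libraries labelled WT at E17.5, 4 of 7 were higher, or 3 of the 6 genes other than Nkx2-2 (32.1% of all genes called, 17.6% higher). Olig2 was 6.63-fold higher (limma adjusted p = 4.3e-07), Olig1 6.36-fold (0.00045), Nkx2-2 4.39-fold (0.00033) and Lhfpl3 3.05-fold (0.016). Without the WT libraries B and C of E15.5 the count was 1, Olig2. Lhfpl3 did not pass without WT library B at E15.5 (adjusted p = 0.073), or the library B or C labelled WT at E17.5 (0.051 and 0.073).

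In cKO no fall from E11.5 to E13.5 passed the test, and 6 of the 7 genes rose at the next step. From E11.5 to E13.5 1 of 7 passed, Cspg4, which rose by 0.66 ± 0.23 SE on the log2 scale (limma adjusted p = 0.038, with 25.1% of all genes called, 15.5% higher). That call was lost when any of 4 libraries was left out, cKO A or C at E11.5 (adjusted p = 0.13 and 0.18) and cKO B or C at E13.5 (0.22 and 0.12), and without the 5 C libraries (0.45). Olig2 went from 19.7 ± 1.59 to 13.5 ± 3.57 normalized reads (limma adjusted p = 0.12). From E13.5 to E15.5 6 of 7 rose (61.8% of all genes called, 31.9% higher). Olig1 rose 40.9-fold (limma adjusted p = 1.6e-08), Sox10 23.1-fold (0.00019), Olig2 4.60-fold (2.7e-07), Lhfpl3 3.69-fold (0.0024) and Cspg4 2.02-fold (0.00067). Nkx2-2 went from 0 reads to 3.01 ± 0.110, at least 2.95-fold higher by the same floor (0.00016), and Pdgfra went from 608 ± 464 to 246 ± 9.89 (0.23).

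From cKO at E15.5 to the libraries labelled cKO at E17.5, 5 of 7 were higher, or 4 of the 6 genes other than Nkx2-2, beside 29% of all genes called and 15.4% higher. Olig2 was 9.61-fold higher (limma adjusted p = 2.5e-08), Olig1 7.65-fold (0.00018), Nkx2-2 6.54-fold (2.8e-05), Pdgfra 4.61-fold (0.011) and Lhfpl3 2.59-fold (0.040). Without the 5 C libraries 3 of these passed, Olig1, Olig2 and Nkx2-2. The Lhfpl3 call was lost when any single library of these groups was left out (adjusted p from 0.066 to 0.098), and without the WT libraries B and C of E15.5 (0.051). Sox10 went from 41.9 ± 4.66 to 200.1 ± 27.9, which did not pass in limma (adjusted p = 0.066) and was called by edgeR and DESeq2. The WT and cKO courses share no libraries, and whether a step differed between them is the test of the change in genotype difference given above.

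**Figure D4:**
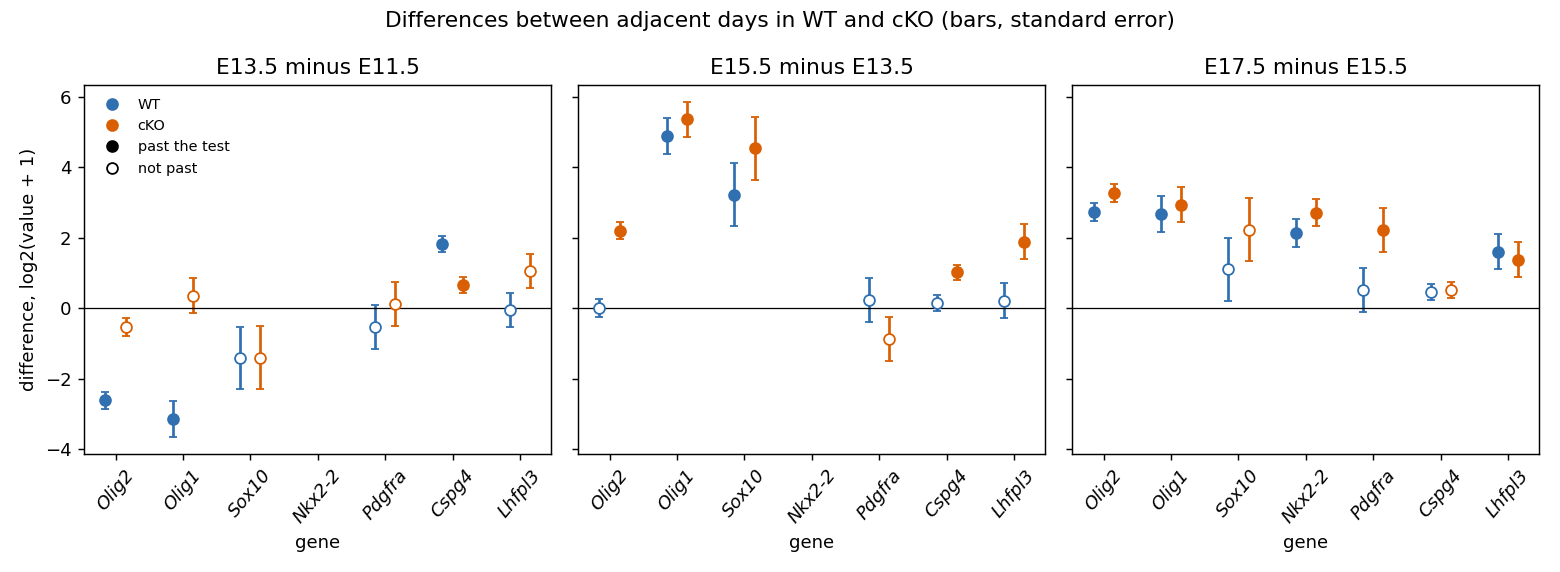
Differences between adjacent days on the log2(value + 1) scale in WT (blue) and cKO (orange), as labelled for E17.5, with bars of 1 SE from limma and filled points for those past the threshold. Olig1 rises by 4.89 in WT and 5.35 in cKO from E13.5 to E15.5, Olig2 rises from E13.5 to E15.5 in cKO with a WT difference near 0, and Nkx2-2 is drawn for the last step alone.

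Ranked over the 8 groups, the libraries labelled cKO at E17.5 were highest for 6 of the 7 genes and those labelled WT at E17.5 for Cspg4. The libraries of 2 neighbouring groups in the order overlapped in 6 of 7 neighbour pairs for Pdgfra and for Cspg4, in 5 for Lhfpl3 and Nkx2-2, in 4 for Sox10, in 3 for Olig1 and in 2 for Olig2. For Olig2 the order was E17.5 labelled cKO (627 ± 13.6), E17.5 labelled WT (316 ± 92.7), WT E11.5 (282 ± 10.5), cKO E15.5 (64.5 ± 3.79), WT E13.5 (47.3 ± 16.2), WT E15.5 (46.0 ± 10.1), cKO E11.5 (19.7 ± 1.59) and cKO E13.5 (13.5 ± 3.57). The pairs that overlapped were E17.5 labelled WT with WT E11.5, and WT E13.5 with WT E15.5.

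Per kilobase of exon the leading gene changed with time. In WT at E11.5 Olig2 led with 112 ± 4.16 normalized reads per kb (SD, n = 3), before Pdgfra with 81.3 ± 24.2. In cKO at E11.5 Pdgfra led with 42.7 ± 10.3 and Olig2 read 7.80 ± 0.628. Olig1 was the highest at E17.5, at 224 ± 44.0 in the libraries labelled WT and 397 ± 61.3 in those labelled cKO, followed by Olig2 at 125 ± 36.7 and 248 ± 5.36.

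The genes whose log2 levels followed each lineage gene most closely were found among 12229 genes with a mean of at least 50 normalized reads, as a description. Over the 24 libraries the closest to Sox10 were Zfp385b (Pearson r = 0.947), Gpr17 (0.941) and Sorcs1 (0.930), and over the 8 group means Gpr17 (0.984), Adarb2 (0.980) and Fbxl15 (0.977). The closest to Pdgfra over the libraries were Slc9a9 (0.917), Adgrg6 (0.910) and Pdgfrb (0.867), and over the group means Slc9a9 (0.952), Sspn (0.900) and Egfr (0.892). For Olig2 they were Adgra1 (0.885), Rsrc1 (0.875) and Gjd2 (0.871) over the libraries, and Gpr19 (0.959), Adgra1 (0.954) and Nkain4 (0.939) over the group means. For Olig1 they were Cacng5 (0.953), Fhl2 (0.948) and Adarb2 (0.945), and Chic2, Htra3 and Tmem106c over the group means (0.982 to 0.983). Lhfpl3 was followed most closely by Phyhipl on both scales (0.941 and 0.991), then by Grin3a and Negr1 over the libraries and by Kctd21 and Arg2 over the group means. The genes next to Cspg4 were Atf7, Zhx3 and Git2 (0.966 to 0.968) and Fbxl18, Pdp2 and Pcdhgb5 (0.990 to 0.994), and those next to Nkx2-2 were Pip4k2a, Sv2c and Hepacam (0.962 to 0.967) and Purg, Sv2c and Arntl (0.989 to 0.990).

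Among the lineage genes themselves, over the 24 libraries, the highest coefficients were those of Olig1 with Nkx2-2 (Pearson r = 0.923) and with Sox10 (0.888), and those of Pdgfra ran from 0.320 with Cspg4 to 0.513 with Olig2. These points share day and genotype, so that a common course over the days enters every coefficient.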

How the data were processed

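Polyadenylated RNA of 24 libraries, 8 groups of 3, was prepared with a stranded TruSeq kit and sequenced on a HiSeq 4000, per the labels' protocols. The deposited signal is the number of reads per gene, over 22529 genes, divided by the library's size factor. The tools named per the submitters' processing notes are DESeq 1.22.1, HTSeq 0.5.3, STAR 2.5.0a and cutadapt 1.6, and the build is mm10 (GRCm38). Not given in the sources used here are their roles, the annotation release, the strand setting and the treatment of reads matching several genes. All values (100%) were whole multiples of what 1 read is worth within 0.01, so whole reads were recovered.

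limma 3.58.1 in R 4.3.3, with a trend, was fitted to log2(value + 1) over all 24 libraries with 1 mean per group. Genes with at least 3 libraries at 10 or more were tested, 17518 in all, two-sided, and called at a Benjamini-Hochberg adjusted p under 0.05. The count tests edgeR 4.0.16 (quasi-likelihood) and DESeq2 1.42.0 were run on the recovered reads, and limma and edgeR were tested on simulated data. Tables and figures were made with pandas 2.3.3 and matplotlib 3.10.9. Further settings were TMM factors, no trend, a pseudocount of 0.5 or 5, a minimum mean of 50 or no filter, libraries left out, a block for the letter, and a fit of the compared groups alone. Floors of 3 reads cover counting error only.

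The named genes were the 7 members in every comparison, up to 4 members of each gene list among those past the threshold, with the highest and lowest log2 fold changes, and the 3 genes most correlated with each member over libraries and over group means. Foxd3, Erbb3, Dlx2, Krt5, Col1a1, Pax6, Emx1 and genes given with a count of 5 or fewer were named after their values were seen. 1 gene of the lists is not reported here by name. The members and lists were chosen with earlier results of these data known. In the lists, 5 genes are not analysed here for want of a row. Coordinates are from GENCODE M21 and promoters from RefSeq.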

Additional observations from a re-analysis of the deposited data

Results flagged for a closer look

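The difference between cKO and WT was not the same on all days for 4 of the 7 genes, by limma's joint F test over the 4 days. The F value was 75.9 for Olig2 and 15.4 for Olig1, each with cKO far below WT at E11.5 and above it, or with overlapping libraries, at E15.5. It was 7.02 for Lhfpl3, whose cKO mean was below WT at E11.5 and E13.5 and above it at E15.5 and, by the labels of that day, at E17.5. For Cspg4 it was 4.99, with a cKO mean well below WT at E13.5, and the test did not pass without the 5 C libraries (F of 3.89, adjusted p = 0.14).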

How the results depend on the processing

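Of the results for single genes and the counts of genes called, 590 of 646 kept their direction and their side of the threshold under settings other than leaving out 1 library, 33 were no longer past it, 11 newly passed and 12 changed sign. When 1 library was left out, 444 of 492 kept both, 33 were lost, 3 were gained and 12 changed sign. Every change of sign was in a difference that had not passed. At E11.5 3 genes were called, and 1 (Olig2) with only the groups compared. At E13.5 2 were called, and 0 with only the groups compared. At E17.5, as labelled, 2 were called, 1 with a pseudocount of 0.5, a mean of at least 50 or without the 5 C libraries, and 4 with only the groups compared. From WT at E15.5 to the libraries labelled WT at E17.5 the count of 4 was 1 without the WT libraries B and C of E15.5. In cKO the count of 1 from E11.5 to E13.5 was 0 without the 5 C libraries and with only the groups compared, and that of 5 from E15.5 to E17.5 was 3 without the 5 C libraries. The cause was not tested, beyond the fewer libraries that set the spread. Over all genes, calls without the 5 C libraries fell to 12 higher and 85 lower at E11.5 (107 and 441 with them), 138 and 324 at E13.5 (1715 and 2196) and 28 and 11 at E15.5 (146 and 295).

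With 1 library left out, the counts ranged from 2 to 3 at E11.5, 2 to 4 at E13.5, 0 to 1 at E15.5 and 1 to 2 at E17.5. In WT they ranged from 3 to 4, 2 to 3 and 3 to 4 over the successive steps, and in cKO from 0 to 1, 6 to 7 and 4 to 4. For the change of the genotype difference with the day the range was 3 to 4.

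The log2 difference of Cspg4 at E11.5 was 0.00092 with a pseudocount of 5, 0.012 with TMM factors, 0.10 without the 5 C libraries, 0.049 by edgeR and 0.037 by DESeq2, and from 0.016 to 0.15 where leaving out a library turned it (0.016, 0.030, 0.059 and 0.15), the lowest being -0.21 without cKO library B. For Olig1 at E13.5 it was -0.020 with a pseudocount of 0.5 and -0.36 without the 5 C libraries, and -0.091, -0.16 and -0.36 without WT library C and cKO libraries B and C in turn, and up to 0.83 without cKO library A. For Pdgfra at E13.5 it was 0.076 by edgeR, 0.048 by DESeq2, 0.094 without WT library B and 0.57 without cKO library A, the lowest being -0.89 without cKO library B, and for Sox10 it was 0.12 without WT library B and -2.64 without WT library A. Without the WT libraries B and C of E15.5 it was 0.86 for Sox10, 0.34 for Pdgfra and 0.046 for Cspg4 on that day, and 0.17 and 0.031 for Sox10 with B or C alone left out and -0.66 with A left out.

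The labels do not say that a letter marks a pair. Same-letter deviations of WT and cKO correlated above 0.1 in 1 of 12 pairs, from -0.428 to 0.110, and 4 of 12 libraries correlated best with their own letter. Deviations from the mean of 3 libraries sum to 0, and in 5 groups C lay near a mix of A and B. These correlations therefore cannot show whether libraries of a letter share a litter or batch. With the letter as a replicate block the counts of genes called were 3, 2, 0 and 2 on the 4 days, as without it, and 3, 3 and 4 in WT, 1, 6 and 5 in cKO and 4 for the change with the day. The Olig1 step from E11.5 to E13.5 had an adjusted p of 0.053 under the block. Nkx2-2 had 1 read over the 12 libraries of E11.5 and E13.5, so that a difference there was not detectable at this depth, and Olig1 and Sox10 rest on few reads at E13.5.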
